A study of Mus musculus with 46 samples.

Results

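H3.3 peaks in the last 2 Mb of each of the 19 mouse autosomes, on the side away from the centromere, were described across 16 H3.3 ChIP-Seq libraries. A peak was counted as a chromosome end peak when its midpoint lay in that window of the genome build mm9, whatever its height. This gave 18096 end peaks among 1011524 autosomal H3.3 peaks, between 481 and 1778 in a library. The windows held 37.9 Mb of sequence without assembly gaps, 1.58% of the autosomal sequence, and 1.79% of the peaks. They held the starts of 515 of 21418 autosomal protein-coding genes, or 13.6 genes per Mb against 8.81 in the rest. The rest of a chromosome was everything between its first 6 Mb and its last 2 Mb.

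H3.3 is a variant of histone H3 that is put into chromatin outside replication. The chaperone Hira places it at genes and regulatory elements, whereas Atrx and Daxx place it at telomeres and pericentric repeats. Mouse chromosomes carry the centromere near an end, so each has a proximal end next to pericentric repeats and a distal end with genes that run close to the telomere repeat. The repeat itself was outside the reach of these data as far as it is uniform, because the authors kept only reads with a single place in the genome.

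The study followed mouse embryonic fibroblasts (MEFs) that carry a green fluorescent reporter at Oct4, through retroviral reprogramming with Oct4, Sox2, Klf4 and c-Myc to induced pluripotent stem cells (iPSCs). Fibroblasts of day 0 (D0) and cells of day 3 (D3) were unsorted. Cells of days 6 and 9 were sorted into Thy-1-negative (D6T-, D9T-) and Thy-1-positive fractions (D6T+, D9T+), and cells of days 12 and 16 into SSEA-1-positive (D12S+, D16S+) and SSEA-1-negative fractions (D12S-, D16S-). The Thy-1-negative and SSEA-1-positive fractions are called successful here and the others unsuccessful. ESD3 was an embryonic stem cell line. The other system was transdifferentiation to hematopoietic cells with Scl, Lmo2, Runx1 and Bmi1, with fibroblasts of day 0 (MEF), day 4 (D4) and final cells sorted for cKit (cKit+, cKit-). Each group was a single library, so no difference between groups has a replicate check, and intervals below are 95% intervals for counting error only. Peaks are not independent of each other, which makes these intervals too narrow.

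The tag total of an H3.3 library ran from 18.8 M (D16S+) to 91.7 M (cKit+), and its autosomal peaks from 25332 (cKit-) to 106343 (D4). The share of tags in peaks, HOMER's estimate of the efficiency of the precipitation, was lowest in cKit+ with 1.65% and highest in D4 with 37.2%. The share of all 21418 autosomal genes with an H3.3 peak was 60.8% in D0, 53.0% in MEF, 61.1% in iPSCs, 52.3% in ESD3 and 33.3% in cKit+. Of 7 fibroblast marker genes such as Col1a1 and Thy1, 7 held an H3.3 peak in D0 and MEF, 2 in iPSCs and 0 in ESD3. Of 7 pluripotency genes found by symbol such as Nanog and Esrrb, 3 held a peak in D0, 7 in iPSCs and 6 in ESD3. Of 7 hematopoietic genes found by symbol such as Gata2 and Kit, 3 held a peak in cKit+ and 4 in MEF.

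The sequences below are examples of what H3.3 peaks of the ends lie on. The first is the inner border of the telomere repeat at the distal end of chromosome 2 in mm9, plus strand, 5′ to 3′, with each copy of TTAGGG in capitals. The assembly stops 763 bp after this stretch. It does not lie in a protein-coding gene, and the nearest one is Gm14496. The merged H3.3 region there was found in 15 of the 16 libraries. The last line, with CG pairs in capitals, is shown for contrast: it is the middle of a stretch of 1332 bp in Eif4b, a translation initiation factor, that peaks of all 16 libraries covered, and its midpoint lies in an intron.
chr2:181747125-181747324: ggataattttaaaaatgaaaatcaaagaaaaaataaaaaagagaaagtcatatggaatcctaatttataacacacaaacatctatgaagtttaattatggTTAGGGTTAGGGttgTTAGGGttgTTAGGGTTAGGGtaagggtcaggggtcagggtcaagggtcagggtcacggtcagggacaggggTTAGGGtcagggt
chr15:101925428-101925727: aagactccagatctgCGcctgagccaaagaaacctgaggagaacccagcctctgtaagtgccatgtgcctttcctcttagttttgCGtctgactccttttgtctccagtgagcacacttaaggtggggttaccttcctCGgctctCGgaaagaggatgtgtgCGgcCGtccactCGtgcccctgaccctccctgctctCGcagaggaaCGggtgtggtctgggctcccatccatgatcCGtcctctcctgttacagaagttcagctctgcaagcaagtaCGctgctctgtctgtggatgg
On chromosome 2 the border separates ordinary sequence from repeat copies that are interrupted by altered copies. The Eif4b stretch held 11 CG pairs in 300 bases and is not typical. Stretches of the same length from the other highest-scoring end regions found in all 16 libraries held 2, 2, 3, 4 and 7. At least 10 CG pairs were present in 2.63% of all 300-base windows of the ends and in 2.22% of windows spaced over the rest.

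The outermost region of chromosome 2 carried high peaks. Its peaks over the repeat array had a score, which is the number of tags in the peak per 10 M tags, of 150.5 in cKit- at the lowest and 572.9 in ESD3 at the highest. In D0 the score there was 317.2 with a fold over input of 6.79, in iPSCs 494.0 with a fold of 5.91, and in MEF 326.6 with a fold of 3.71. No peak was called there in cKit+. The input itself was high at this place: the peaks of the region had a median of 19.9 times the input per kb of a typical peak in the rest of the genome, and 32.8 times in ESD3. The part of this input in the scores was not tested.

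Tandem telomere repeats were rare in end peaks. At least 2 tandem copies of TTAGGG on either strand were present in 6 of 1536 end peaks of D0 (0.391%, interval 0.179 to 0.850%) and in 0.140% of the peaks of the rest. In iPSCs they were present in 10 of 1416 end peaks (0.706%, 0.384 to 1.30%) and in 0.183% of the rest. The sequence itself differed in the same direction: of windows of 500 bp, 0.103% in the ends and 0.0238% in the rest held the motif. Of 3646 merged end regions over the 16 libraries, 24 held it.

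Peak density at the ends was slightly above that of the rest in each of the 16 libraries. In D0, 40.5 peaks per Mb at the ends stood against 37.2 in the rest, a ratio of 1.09 (1.04 to 1.15). The ratio was 1.19 in D3, 1.12 in iPSCs and 1.06 in ESD3, whose interval of 0.996 to 1.14 included 1. It was 1.08 in MEF, 1.05 in D4, 1.23 in cKit+ and 1.21 in cKit-. The highest value was 1.27 in D12S+ (1.19 to 1.36), and the median of all libraries was 1.14. Fibroblasts and pluripotent cells overlapped in this measure.

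The sorted fractions did not separate by route over the last 2 Mb. The ratio was 1.12 in D6T- and 1.15 in D6T+, 1.12 in D9T- and 1.17 in D9T+, 1.27 in D12S+ and 1.10 in D12S-, and 1.21 in D16S+ and 1.18 in D16S-. Successful fractions were higher on 2 of 4 days, with a mean log2 difference of 0.03. In a two-sided exact permutation test that flips the sign of each day's difference, p was 0.875, and the smallest p such a test can give is 2 of 16 sign assignments.

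**Figure D1:**
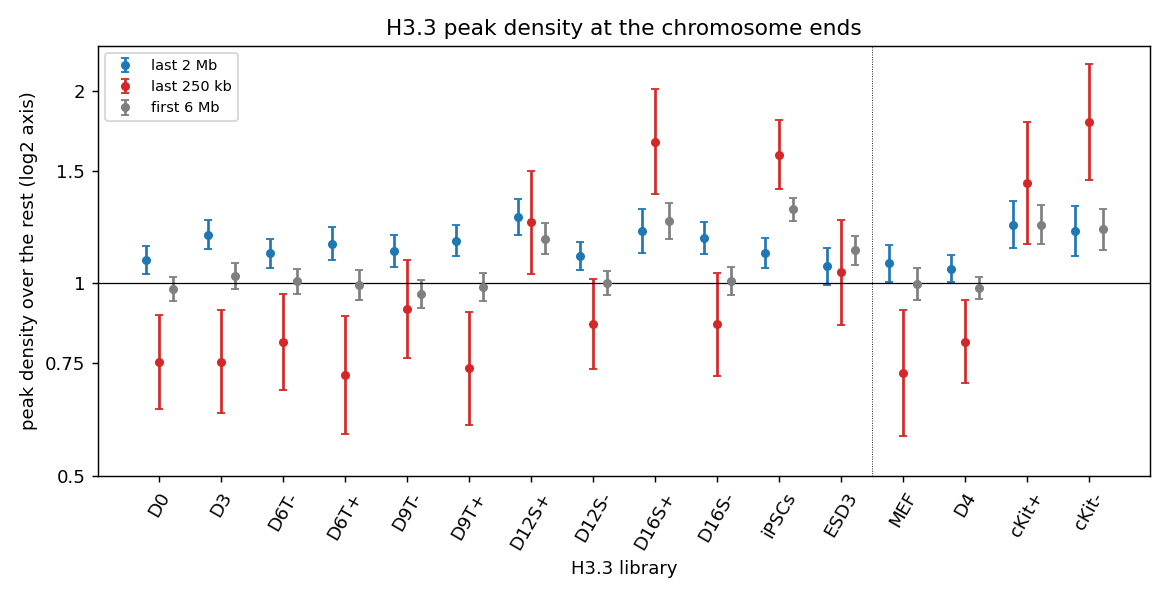
Peak density relative to the rest of the autosomes (y axis, log2 scale) for each H3.3 library (x axis), in the last 2 Mb (blue), the last 250 kb (red) and the first 6 Mb (grey). Bars are 95% counting intervals, and the dotted line parts reprogramming from transdifferentiation. Blue points lie between 1.05 and 1.27, whereas red points run from 0.720 in D6T+ to 1.79 in cKit-.

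The ratio differed widely between chromosomes. It was above 1 in all 16 libraries on 4 chromosomes, and in none on 6. Over the libraries its median was 3.01 on chromosome 15, 2.72 on chromosome 4, 1.93 on chromosome 11 and 1.85 on chromosome 2, whose ends held 68, 61, 69 and 60 gene starts. These 4 ends held 52.0% of the end peaks of the median library. They were picked by the ratio itself, so the pooled value without them, 0.584 to 0.928 over the libraries, is a description. Between 6 and 10 of the 19 chromosomes were above 1 in a library.

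The lowest median ratios were on 3 ends with few genes. The median ratio was 0.093 on chromosome 17, whose end held 3 gene starts, 0.243 on chromosome 12 with 7, and 0.271 on chromosome 14 with 6, although Fgf14, Itgbl1 and other long genes cover 77.4% of that end. Other ends with as few gene starts were higher, with 0.36 on chromosome 18 (6 gene starts) and 0.556 on chromosome 1 (6). Chromosome 3 (7) had 0.657 and chromosome 8 (6) had 0.858. On chromosome 17, D0 had 6 peaks in the last 2 Mb and iPSCs had 24. Over the 19 chromosomes, Spearman's rho of the median ratio was 0.81 with gene starts per Mb of the end relative to the rest, and 0.83 with the difference in GC content. Genes and GC content go together along the genome, and the points share their libraries, so these values are a description. Chromosome 10 departed from this order: its end held 87 gene starts, of which 58 were olfactory receptors, and its median ratio was 1.14.

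**Figure D2:**
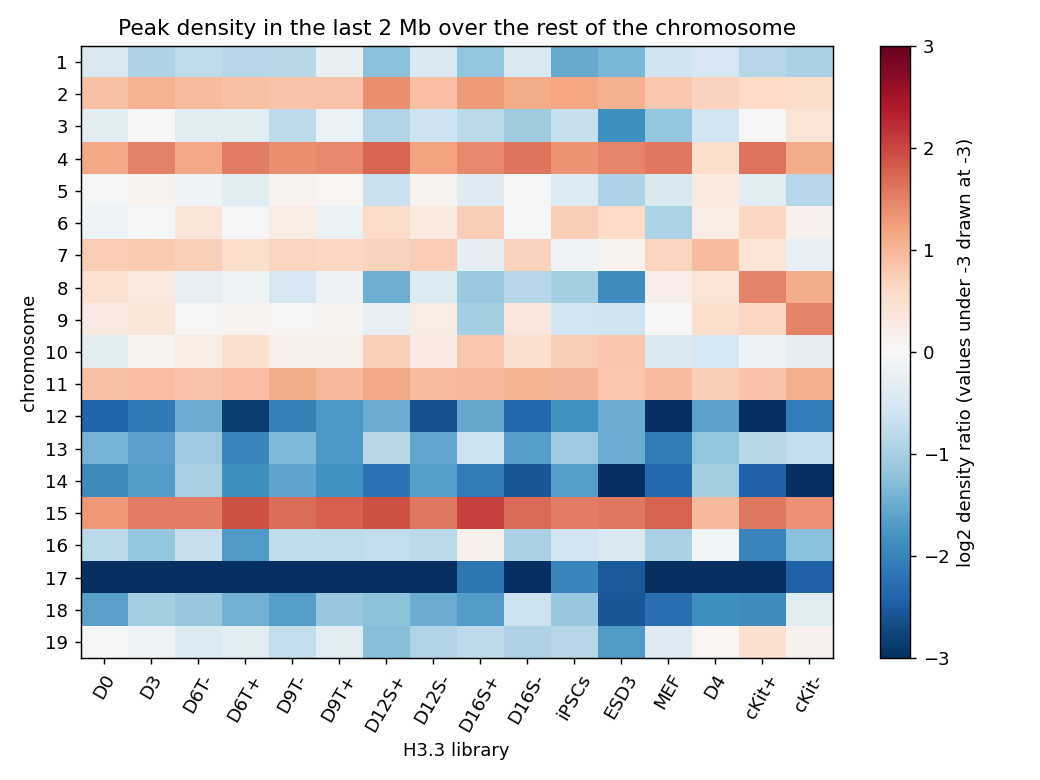
Log2 ratio of peak density in the last 2 Mb to the rest of the same chromosome (colour), for 19 autosomes (rows) and 16 H3.3 libraries (columns), with values under -3 drawn at -3. Chromosomes 2, 4, 11 and 15 are red in every library and chromosomes 12, 14 and 17 blue, while chromosome 8 turns from red in D0 to blue in iPSCs.

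Windows of the same size elsewhere gave the background. In D0, 2 of the 19 end windows, on chromosomes 4 and 15, had at least 2 times the density of the rest of their chromosome, and of all 1168 windows of 2 Mb 11.9% did. In iPSCs it was 4 of 19, on chromosomes 2, 4, 11 and 15, against 13.7% of all windows.

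Over the last 2 Mb the covered sequence of single ends was compared with D0. By base pairs covered, as a share of each library's total, 3 of 19 end windows were at least 2-fold higher in iPSCs than in D0, on chromosomes 6, 10 and 17, and of all windows 19.9% were. The covered sequence was 64.0 kb in D0 and 135 kb in iPSCs on chromosome 6, and 95.4 kb and 180 kb on chromosome 10. Only chromosome 8 was at least 2-fold lower, with 170 kb in D0 and 27.0 kb in iPSCs, against 18.4% of all windows. ESD3 covered 9.21 kb there, a log2 difference in share of -2.76 from D0. In ESD3, 5 end windows were at least 2-fold lower than in D0, on chromosomes 1, 3, 8, 14 and 18 (21.6% of all windows), and 2 were at least 2-fold higher, on chromosomes 12 and 17 (17.8%). Between the fibroblast libraries D0 and MEF, 0 end windows were higher in MEF (4.71% of all windows) and 2 were lower, on chromosomes 12 and 18 (9.42% of all windows).

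The outermost 250 kb behaved differently from the 2 Mb window. In D0 this stretch was poorer in peaks than the rest, with 133 peaks and a density ratio of 0.754 (0.636 to 0.893). The ratio was 0.755 in D3 and 0.725 in MEF with 75 peaks. In iPSCs it was 1.59 (1.41 to 1.80) with 252 peaks, 2.11 times the value of D0 and 2.19 times that of MEF. ESD3 lay between, at 1.04 (0.862 to 1.26) with 107 peaks. The highest values were those of cKit- with 1.79 and D16S+ with 1.67, and cKit+ had 1.44. In cKit-, 26 of the 89 peaks lay on chromosome 9, and in cKit+ 18 of the 79 on chromosome 3. The ratio was above 1 on 10 of 19 chromosomes in cKit- and 8 in cKit+. It was above 1 on 13 in D16S+, 14 in iPSCs, 9 in ESD3 and 6 in D0. This width was chosen after the distance profile had been seen, which bears on every value for it.

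Along the sorted fractions the density ratio of the last 250 kb was higher on the successful side on each of 4 days. The ratio was 0.810 in D6T- and 0.720 in D6T+, 0.912 in D9T- and 0.737 in D9T+, 1.25 in D12S+ and 0.864 in D12S-, and 1.67 in D16S+ and 0.863 in D16S-. The mean log2 difference was 0.49, and 2 of 16 sign assignments gave one as large (the same exact test, two-sided), which is the smallest p that 4 days allow and does not reach 0.05. With the same number of top-scoring peaks taken from each library it was 0.54, again with 2 of 16. The 4 ratios of the unsuccessful fractions and those of D0, D3 and MEF all lay between 0.720 and 0.864. Those of D12S+, D16S+, iPSCs and ESD3 lay between 1.04 and 1.67. Peak counts there were 131 in D6T- and 86 in D6T+, and 122 in D9T- and 93 in D9T+. They were 112 in D12S+ and 148 in D12S-, and 110 in D16S+ and 111 in D16S-. The rest had 18.9 peaks per Mb in D12S+ against 36.1 in D12S-, and 13.9 in D16S+ against 27.1 in D16S-. On days 12 and 16 the higher ratio thus came without more peaks in the last 250 kb.

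Depth and efficiency differed between these libraries. The share of tags in peaks was 4.88% in D16S+, 6.93% in D12S+, 12.2% in D16S- and 21.96% in D12S-. It was 19.1% in D0 and 14.0% in iPSCs, and close in MEF with 7.64% and ESD3 with 7.40%, whose ratios were 0.725 and 1.04. With equal numbers of top-scoring peaks, 33579 for each reprogramming library, the last 250 kb held 45 peaks in D0, 84 in ESD3 and 122 in iPSCs. The iPSC list is one of 4 in which the authors scaled the ChIP tags to the input, together with D3, D6T- and D9T-, whereas those of ESD3 and D16S+ are not. The part of the efficiency and of the scaling in the difference was not tested.

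**Figure D3:**
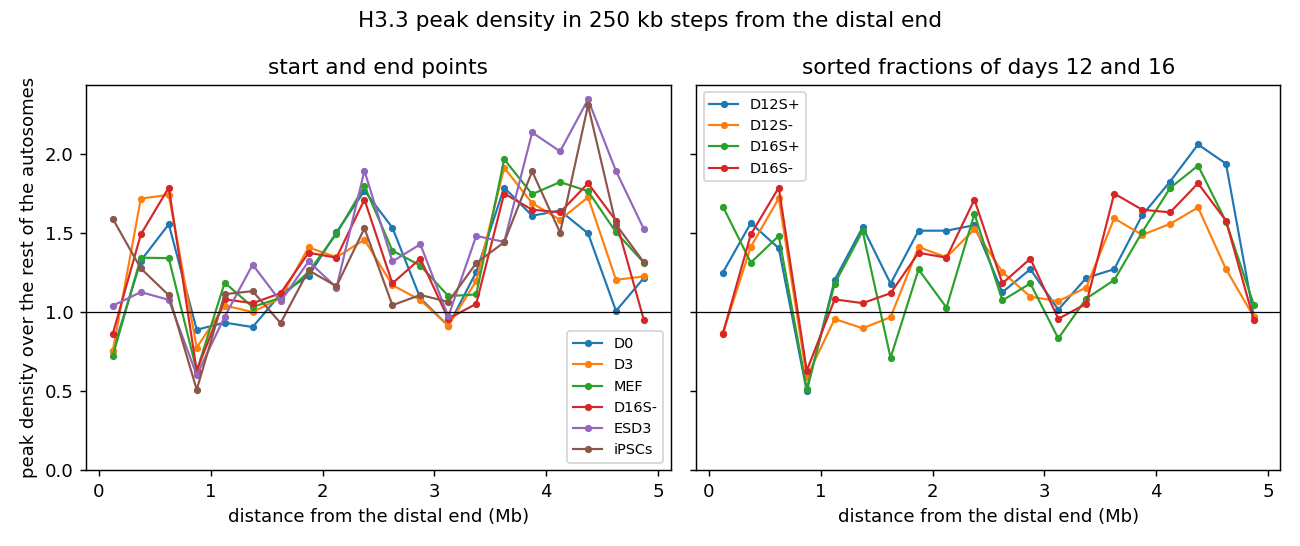
Peak density relative to the rest of the autosomes (y axis) in steps of 250 kb from the distal end (x axis, Mb), pooled over the 19 autosomes, for start and end points (left) and sorted fractions of days 12 and 16 (right). In the outermost step iPSCs lie at 1.59 and D16S+ at 1.67 and D0 at 0.755, whereas from 250 to 750 kb D3 and D16S- lie above iPSCs, and all lines dip below 1 in the step that ends at 1 Mb.

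The gain in the share of peaks from D0 to iPSCs was spread over many chromosomes. From D0 to iPSCs the share of a library's peaks that lay in the last 250 kb rose at least 2-fold, with at least 3 peaks, on 13 of 19 chromosomes, and it did so in 17.8% of 9425 windows of that size. It fell at least 2-fold on 1 of 19, chromosome 3, against 23.0% of all windows. The count of 2-fold higher ends was 14 of 19 for iPSCs against MEF (19.7% of all windows), 8 of 19 for ESD3 against D0 (12.8%) and 10 of 19 for D16S+ against D16S- (8.21%). For MEF against D0 it was 0 of 19 (6.41%). The comparisons with D0 share that library.

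Counts are given for 5 of the 13 ends that were higher in iPSCs than in D0, chosen after their values were seen. On chromosome 8 there were 0 peaks in D0, MEF and D16S-, 5 in D16S+, 2 in ESD3 and 7 in iPSCs. On chromosome 12 there were 0 in D0, MEF and D16S-, 3 in D16S+, 1 in ESD3 and 5 in iPSCs. On chromosome 11 the counts were 6 in D0, 1 in MEF, 4 in D16S-, 9 in D16S+, 10 in ESD3 and 25 in iPSCs. On chromosome 17 they were 2 in D0, 2 in MEF, 3 in D16S-, 4 in D16S+, 5 in ESD3 and 16 in iPSCs. On chromosome 18 they were 1 in D0, 2 in MEF, 8 in D16S-, 4 in D16S+, 5 in ESD3 and 14 in iPSCs. Among these 6 libraries iPSCs had the highest count on each of these 5 ends, and on chromosome 18 D16S+ was below D16S-.

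Chromosome 3 went the other way. Its last 250 kb held 26 peaks in D0, 8 in MEF, 3 in D16S-, 1 in D16S+, 0 in ESD3 and 1 in iPSCs. Of those of D0, 23 lay on Wls, which starts 97.1 kb before the end and runs almost to it.

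**Figure D4:**
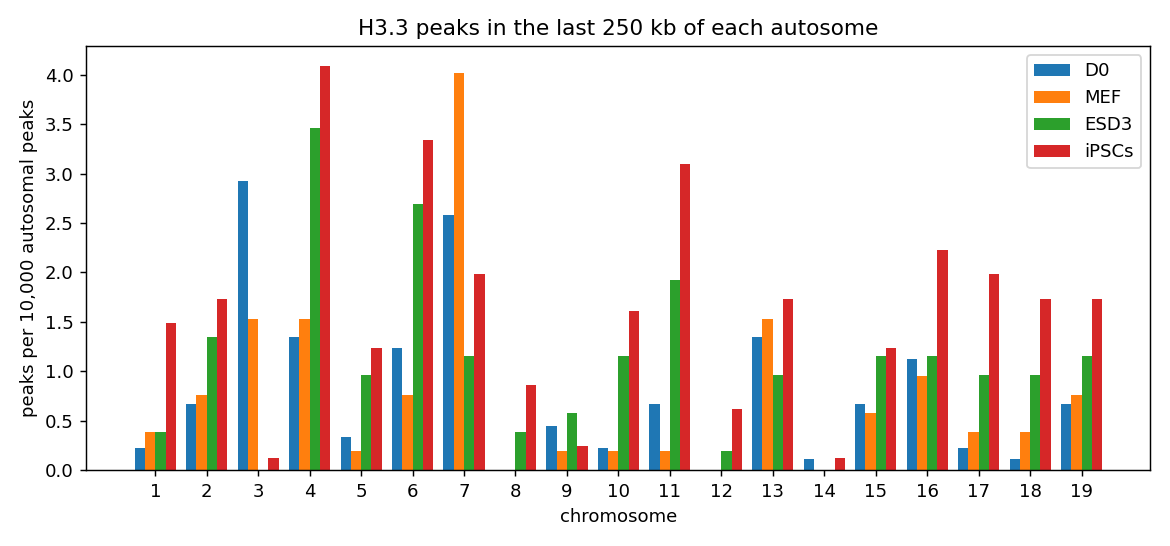
H3.3 peaks in the last 250 kb of each autosome (x axis) per 10000 autosomal peaks of the library (y axis), for D0, MEF, ESD3 and iPSCs. The iPSC bar is the tallest on most chromosomes, while on chromosome 3 the D0 bar stands highest, with 26 peaks.

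Intergenic and genic sequence of the last 250 kb were also counted apart. Counting intergenic sequence and peaks alone, the ratio was 0.938 in D0 and 1.15 in MEF, and 2.38 in iPSCs, 1.64 in ESD3, 2.54 in D16S+ and 1.55 in D16S-. Within gene bodies it was 0.686 in D0, 0.441 in MEF, 0.975 in iPSCs, 0.565 in ESD3, 0.868 in D16S+ and 0.516 in D16S-. Protein-coding gene bodies made up 35.8% of the last 250 kb and 39.4% of the rest. Of the H3.3 peaks there, 53.4% lay in a gene body in D0 and 31.7% in iPSCs.

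High input was found in fibroblasts and pluripotent cells alike. In the last 250 kb, 2.26% of the peaks of D0, 5.33% of MEF, 2.38% of iPSCs and 5.61% of ESD3 lay on input of more than 4 times the median of the rest, and the remaining libraries ranged from 0 in cKit+ to 4.65% in D6T+. The median input per kb of these peaks was 1.05 times that of the rest in D0 and 1.12 times in iPSCs. Among peaks of the rest, the share on such high input was far smaller. It was 0.0901% in D0, 0.144% in MEF, 0.215% in iPSCs, 0.297% in ESD3 and 0.111% in D6T+.

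The outermost H3.3 peak of a chromosome lay a median of 3.02 kb from the end in iPSCs and 27.9 kb in D0, with 14.9 kb in MEF and 7.65 kb in ESD3. It was within 10 kb of the end on 15 chromosomes in iPSCs, 8 in D0, 9 in MEF and 10 in ESD3. Other libraries were close to ESD3, with medians of 7.14 kb in D6T-, 7.16 kb in D9T-, 7.79 kb in D12S- and 8.27 kb in D4. D16S+ with 15.1 kb and D12S+ with 18.2 kb were above MEF. With its few peaks cKit+ reached a median of 138.4 kb.

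The most distal gene of a chromosome started between 2.8 and 192.5 kb from the end, with a median of 73.1 kb. Of these 19 genes, 14 held a peak in at least 1 of 16 libraries, 10 in D0 and 11 in iPSCs. For comparison, 60.8% of all autosomal protein-coding genes held a peak in D0 and 61.1% in iPSCs. Only Bicd1 held a peak in each of the 12 reprogramming libraries, against 24.4% of all genes. Of all genes, 22.2% held none in any of these 12, and the share for all 16 libraries was not counted.

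Wls, the carrier that brings Wnt ligands to the cell surface, is the most distal gene of chromosome 3 (159502701 to 159598797). It held 23 peaks in D0, 25 in D3, 15 in D6T-, 11 in D6T+, 10 in D9T-, 11 in D9T+ and 11 in D12S-. There were 2 in D12S+, 0 in D16S+, 3 in D16S-, 1 in iPSCs and 0 in ESD3. In transdifferentiation the counts were 6 in MEF, 25 in D4, 17 in cKit+ and 13 in cKit-. The summed score of its peaks was 371.5 in D0, 76.2 in MEF, 26.8 in D16S- and 14.5 in iPSCs. D12S+, both fractions of day 16, iPSCs and ESD3 were thus below all other libraries, of which MEF was the lowest.

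Bicd1, an adaptor of the dynein motor, is the most distal gene of chromosome 6 (149357506 to 149511851). It held 1 peak in D0, 1 in D3, 1 in D6T+ and 1 in D9T+, and 6 in D6T-, 7 in D9T- and 6 in D12S-. It held 3 in D12S+, 4 in D16S+, 3 in D16S-, 15 in iPSCs and 6 in ESD3. MEF had 1, D4 2, cKit+ 1 and cKit- 3. The summed score was 10.6 in D0, 8.78 in MEF, 56.7 in ESD3 and 164.0 in iPSCs. Both pluripotent libraries were above both fibroblast libraries, but D6T- with 119.5, D9T- with 124.1 and D12S- with 138.5 were above ESD3, as was D4.

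A predicted gene and a receptor gene also had their highest reprogramming values in iPSCs. On chromosome 11, the predicted gene Gm9631, 25.8 kb from the end, had a summed score of 6.31 in D0, 0 in MEF, 98.8 in ESD3 and 157.4 in iPSCs. Csf2ra, a chain of the GM-CSF receptor on chromosome 19, was at 29.7 in D0, 51.9 in MEF, 53.2 in ESD3 and 98.3 in iPSCs. MEF and ESD3 were nearly equal for Csf2ra and far apart for Gm9631. A merged region over a Gm9631 exon, found in iPSCs and ESD3, lay on an input of 2.21 times that of peaks in the rest.

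The share of genes with a peak was lower at the ends than over all genes in 13 of 16 libraries. Some of these differences were small, as in D6T- with 58.6% against 58.7%. The end genes include the 58 olfactory receptors of chromosome 10, of which 0 held a peak in D0 and 0 in iPSCs. The part of these receptors in the lower share was not tested. Of the 515 genes that start in the last 2 Mb, 298 (57.9%) held a peak in D0 and 312 (60.6%) in iPSCs, against 60.8% and 61.1% of all genes. In ESD3 it was 47.8% against 52.3%, in MEF 49.3% against 53.0%, in D4 61.7% against 68.0%, in cKit+ 28.5% against 33.3% and in cKit- 28.5% against 31.3%. It was higher in D12S+ with 50.1% against 49.9%, in D16S+ with 43.3% against 42.9% and in D16S- with 56.1% against 55.9%. Over all genes it was 57.0% in D3, 58.7% in D6T-, 52.3% in D6T+, 56.8% in D9T-, 53.8% in D9T+ and 61.7% in D12S-. In all 12 reprogramming libraries a peak was found on 101 (19.6%), against 24.4% of all genes, and in none of them on 116 (22.5%), against 22.2%. The genes chosen from those bound in all 12 by score per kb were Mrpl12, Rdh5, Samd10, Pa2g4, Ccnd1, Eif4b, Mafg, Mmp23, Pcbp2 and Adrm1. Several serve every growing cell, such as the translation factor Eif4b, the mitochondrial ribosomal protein Mrpl12, the RNA-binding protein Pcbp2 and the proteasome receptor Adrm1.

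These constant genes still varied in score. The summed score of Eif4b was 490.4 in D0, 322.1 in MEF, 364.3 in iPSCs and 105.3 in ESD3, with 67.5 in D16S+ and 696.8 in D6T-. Ccnd1, which encodes the cell cycle regulator cyclin D1, had 171.6 in D0, 34.9 in MEF, 51.9 in iPSCs and 7.40 in ESD3. For Ccnd1, MEF was thus below iPSCs although it is a fibroblast library.

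Of the 515 genes, 7 (1.36%) had peaks on the fibroblast side (D0, D3, every unsuccessful fraction) but lacked one in D16S+, iPSCs and ESD3, against 1.23% of all genes. The 5 with the highest summed score were Lrrc7, a scaffold protein of synapses, Cd34, a surface glycoprotein of progenitor cells, the homeobox gene Hoxc4, Tmem42 and the protease Bace2. Cd34 was at 73.3 in D0, 18.96 in MEF and 64.8 in D12S-, and had no peak in D12S+, D16S+ or the pluripotent libraries. Lrrc7 was at 97.8 in D0 but without a peak in MEF, so the 2 fibroblast libraries disagreed on it.

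The reverse pattern, with peaks in D16S+, iPSCs and ESD3 and in neither D0 nor MEF, was shown by 15 end genes (2.91%), against 2.03% of all genes. The 5 with the highest summed score were Fgf4, Slc17a9, Gm12588, Nkain4 and 1700008F21Rik. Fgf4, a growth factor that embryonic stem cells secrete, lies 477.3 kb from the end of chromosome 7 and had scores of 52.2 in D12S+, 83.5 in D16S+, 85.9 in iPSCs and 55.5 in ESD3. It also had 41.2 in D12S- and 29.4 in D9T+, so unsuccessful fractions were not free of it. Slc17a9, which loads nucleotides into vesicles, was at 69.2 in D16S- and 52.1 in D16S+. By contrast 1700008F21Rik, 147.8 kb from the end of chromosome 8, was at 26.7 in D12S+, 39.4 in D16S+, 51.5 in iPSCs and 15.7 in ESD3, and the other 12 libraries had no peak on it.

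**Figure D5:**
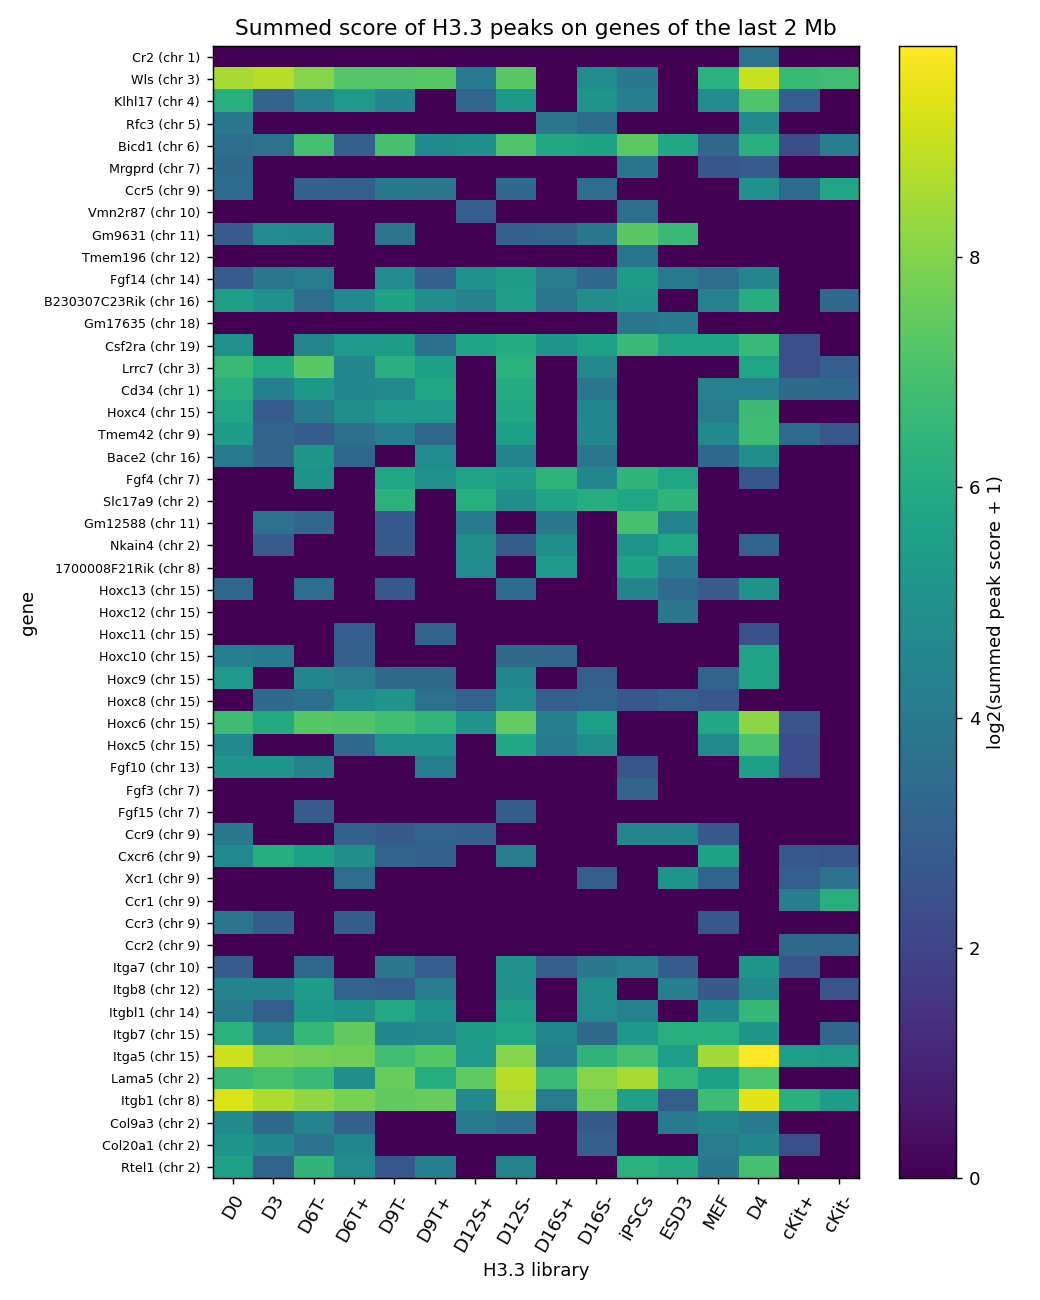
Summed score of H3.3 peaks on genes of the last 2 Mb (rows, with their chromosome) in the 16 H3.3 libraries (columns), as log2 of the score plus 1, for 51 genes in all: the most distal genes, the named genes of both opposite patterns and Hox, Fgf, chemokine receptor, integrin, laminin and collagen genes and Rtel1. Wls and Itgb1 are bright in D0 and dark in ESD3, and Fgf4 is dark in D0 and MEF.

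The Hoxc cluster, 9 homeobox genes that set position along the body axis, starts 743.4 kb from the end of chromosome 15. Peaks were found on 6 of 9 genes in D0, 6 in MEF and 7 in D12S-, and on 2 in iPSCs, 3 in ESD3 and 2 in D12S+. The D16 fractions were close, with 4 in D16S+ and 5 in D16S-. Of all genes, 60.8% held a peak in D0, 53.0% in MEF, 61.7% in D12S-, 61.1% in iPSCs, 52.3% in ESD3, 49.9% in D12S+, 42.9% in D16S+ and 55.9% in D16S-. Hoxc6 had a summed score of 108.4 in D0, 57.9 in MEF, 46.3 in D16S-, 17.6 in D16S+ and 0 in iPSCs and ESD3. With 1 kb added on each side, Hoxc6, Hoxc5 and Hoxc4 overlap, so a peak can count for more than 1 of them.

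Keratin genes lie further inside on the same end, and most carried no peak. Of 16 keratin genes, 3 had a peak in any of the 12 reprogramming libraries: Krt8, Krt18 and Krt77. In D4 there were 7, whereas 68.0% of all genes held a peak in D4. Of all genes, 22.2% had no peak in any of the 12 reprogramming libraries. Krt8 and Krt18, the pair of simple epithelia, sit at the border of the cluster. The olfactory receptors of chromosome 10 were emptier still, with a peak on 1 of 58 genes, Olfr820, in ESD3 alone among those 12 libraries.

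Genes picked by an integrin or laminin symbol, families whose products bind cells to the matrix, numbered 8 at the ends. The symbols also take integrin-like genes such as Itgbl1, so not all 8 need be matrix receptors. A peak was found on 7 of them in D0, 6 in MEF, 6 in iPSCs and 6 in ESD3, on 4 in D12S+, 5 in D16S+ and 3 in cKit+. Of all genes, 60.8% held one in D0, 53.0% in MEF, 61.1% in iPSCs, 52.3% in ESD3, 49.9% in D12S+, 42.9% in D16S+ and 33.3% in cKit+. Itgb1, the beta chain shared by most matrix-binding integrins and located 529.3 kb from the end of chromosome 8, had a summed score of 611.2 in D0, 110.1 in MEF, 207.9 in D16S-, 17.1 in D16S+, 48.9 in iPSCs and 6.94 in ESD3. Itga5, a chain of the fibronectin receptor on chromosome 15, was at 536.2 in D0, 357.8 in MEF, 119.4 in iPSCs and 44.6 in ESD3. Lama5, a laminin chain of basement membranes on chromosome 2, was at 99.0 in D0, 45.5 in MEF, 372.9 in iPSCs and 91.9 in ESD3. Itgb1 and Itga5 were lower in both pluripotent libraries than in both fibroblast libraries, and Lama5 was not separated.

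Chemokine receptor genes at the end of chromosome 9 numbered 8. Of these, 4 held a peak in D0, 4 in MEF, 1 in iPSCs, 2 in ESD3, 5 in D6T+, 5 in cKit+ and 5 in cKit-. Of all genes, 60.8% held one in D0, 53.0% in MEF, 61.1% in iPSCs, 52.3% in ESD3, 52.3% in D6T+, 33.3% in cKit+ and 31.3% in cKit-. Ccr1 and Ccr2, receptors of myeloid cells, had peaks only in cKit+ and cKit- among the 16 libraries. The summed score of Ccr1 was 17.4 in cKit+ and 71.7 in cKit-, and that of Ccr2 8.82 and 9.02. The end of chromosome 9 as a whole had a density ratio of 2.83 in cKit- and 1.57 in cKit+, against 1.01 in MEF.

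Both collagen genes of the ends, Col9a3 and Col20a1 on chromosome 2, held peaks in D0 and MEF and none in iPSCs, and in ESD3 Col9a3 alone held 1. Neither held one in D9T- or D9T+, where 56.8% and 53.8% of all genes did. D12S+ and D12S- each had 1 of the 2 bound, D16S+ 0 and D16S- 2. Of all genes, 60.8% held a peak in D0, 53.0% in MEF, 61.1% in iPSCs and 52.3% in ESD3. Fgf genes numbered 5, with peaks on 2 in D0, 1 in MEF, 4 in iPSCs and 2 in ESD3, against 60.8%, 53.0%, 61.1% and 52.3% of all genes. None of 10 autosomal H3.3 deposition genes and 1 of 15 autosomal telomere maintenance genes started in the windows. The latter was Rtel1, a helicase that unwinds telomere loops, 693.6 kb from the end of chromosome 2. Its summed score was 48.8 in D0, 14.3 in MEF, 77.4 in iPSCs and 63.9 in ESD3, and it had no peak in D12S+, D16S+ or D16S-.

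End peaks were less often inside genes than other peaks, although the ends are richer in genes. In D0, 62.3% of end peaks and 64.8% of peaks in the rest had their midpoint in a gene body, and in iPSCs 54.4% and 57.1%. The difference was negative in all 16 libraries, between -4.93 and -2.44 percentage points. Per Mb of sequence, the intergenic peaks were 1.37 times as dense at the ends as in the rest in the median library, from 1.23 to 1.49. Within gene bodies the ratio had a median of 0.979 and was above 1 in 6 of 16.

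Height and input of the end peaks were close to those of the other peaks. The median score per kb of end peaks was between 0.994 and 1.02 times that of the rest. Input tags per kb of end peaks, put on the same scale of 10 M tags, were between 0.969 and 1.04 times the rest. A small number of end regions stood out. Of 456 merged end regions found in at least 8 libraries, 4 had a median input above 4 times that of peaks in the rest, namely the outermost region of chromosome 2, another pair 83800 and 89931 bp from that end, and a region 127011 bp from the end of chromosome 1. The share of peaks on such input was 0.195% at the ends and 0.0901% in the rest in D0, and 0.565% and 0.215% in iPSCs.

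End regions were about as constant as others. Among 3512 regions made by merging the peaks of the 12 reprogramming libraries, 105 (2.99%, 2.48 to 3.61%) had a peak in all 12, against 2.46% (2.39 to 2.53%) of 202678 in the rest. In a single library only were 51.4% at the ends and 50.9% in the rest. In the last 250 kb, 7 of 472 regions (1.48%, 0.720 to 3.03%) were found in all 12.

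The other marks had a similar or larger excess at the ends. H3K4me3, a mark of active promoters, had a density ratio of 1.18 in D0 and 1.22 in iPSCs, and between 1.14 and 1.39 over 7 libraries. H3K36me3, a mark of transcribed gene bodies, had 1.17 in D0 and 1.38 in iPSCs, and also ranged from 1.17 to 1.38. H3K4me3 peaks at the ends were also taller, with a score per kb of 1.02 to 1.32 times the rest, which was not seen for H3K36me3 with 1.00 to 1.02. In the last 250 kb, H3K4me3 had 0.893 in D0 (0.708 to 1.13), 1.33 in D12S+, 1.58 in D16S+ and 1.499 in iPSCs. H3K36me3 ranged from 1.197 in iPSCs and 1.201 in D0 to 1.772 in D12S+ and 1.950 in D16S+. These H3K4me3 values rest on 71, 72, 60 and 104 peaks. Those of H3K36me3 rest on 63, 131, 43 and 63. For H3K4me3 the share of tags in peaks was 30.4% in D0, 9.27% in D12S+, 3.71% in D16S+ and 12.7% in iPSCs. For H3K36me3 it was 31.3%, 1.07%, 1.99% and 2.88%. The part of that share in these ratios was not tested.

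End peaks of H3.3 overlapped H3K4me3 slightly more often than others. In iPSCs, 35.1% of end peaks and 29.1% of the rest shared at least 1 bp with an H3K4me3 peak of the same cells, a difference of 6.02 percentage points (3.55 to 8.56). In D0 it was 30.9% and 28.1% (difference 2.74, 0.455 to 5.11). Of the 252 peaks of iPSCs in the last 250 kb, 68 (27.0%, 21.9 to 32.8%) overlapped H3K4me3 and 21 (8.33%, 5.52 to 12.4%) overlapped H3K36me3. In D0 these shares were 43 of 133 (32.3%, 25.0 to 40.7%) and 48 of 133 (36.1%, 28.4 to 44.5%). Over the rest, the overlap with H3K36me3 was also lower in iPSCs, with 10.1% against 29.1% in D0. The H3K36me3 library of iPSCs had 26584 autosomal peaks and 2.88% of tags in peaks, against 55415 and 31.3% in D0. The part of this yield in the overlap was not tested.

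The pooled density of the centromere side had its own pattern. The first 6 Mb, of which 56.8 Mb in all were sequence and not gap, had the density of the rest in fibroblasts, with a ratio of 0.981 in D0 (0.939 to 1.02) and 0.998 in MEF. In iPSCs the ratio was 1.30 (1.25 to 1.36), in ESD3 1.13, in D16S+ 1.25 and in D12S+ 1.17 (1.11 to 1.24). It was 1.01 in D16S- and 1.00 in D12S-, and 0.962 in D9T- and 0.987 in D9T+. The cKit+ and cKit- libraries had 1.24 and 1.21. The libraries above 1.1 on this side were those above 1 in the last 250 kb at the other end, and the share of tags in peaks, 1.65 to 14.0% in these 6, was 7.64 to 37.2% in the other 10. The part of that share was not tested. By single chromosomes, the ratio of the first 6 Mb was above 1 on 9 of 19 in D0, 8 in MEF and 8 in ESD3. It was above 1 on 10 in iPSCs, 9 in D12S+, 11 in D16S+ and 14 in each cKit library. The median chromosome had 0.860 in D0, 0.690 in ESD3, 0.945 in D12S+, 1.01 in D16S+ and 1.04 in iPSCs.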

How the data were processed

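H3.3, H3K4me3 and H3K36me3 ChIP-Seq was available as 30 peak lists, and 16 input libraries entered only through the input value of each peak. Per the study's methods, the authors mapped reads to mm9 with STAR, removed reads with more than 2 mismatches or more than 1 locus, and called peaks per library with HOMER in histone style. HOMER and STAR versions are not given in the sources used here. The score is a signal in the deposited lists, scaled by the authors to 10 M tags. Fold enrichment of ChIP over input, a ratio, was deposited by the authors and is at least 2 for H3.3 and 4 for the other marks. The p-value against input was computed by the authors, with a limit of 0.0001. Because 4 deposited H3.3 lists scale ChIP tags to the input and the others scale the input, input was taken as score over fold.

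Lengths without gaps and genes came from mm9 (NCBIM37, GENCODE vM1, protein-coding). Gene peaks had their midpoint in the gene or within 1 kb. Input tags and scores were divided by peak length. Intervals for shares are Wilson intervals at 95%, those for differences of shares are Newcombe intervals, and density ratios take the Wilson interval of the share. The interval of the density ratio was tested on simulated peaks that are independent of each other. The permutation test was checked on fixed sets of differences, and the Newcombe intervals were not tested. Python 3.11.15 with numpy 2.4.6, pandas 2.3.3, scipy 1.17.1 and matplotlib 3.10.9 was used. Named genes were the most distal gene of each chromosome, up to 10 bound in the most reprogramming libraries (ties by score per kb of gene), up to 5 of each opposite pattern by summed score, and members of the named families. Printed recurrent sequence was centred on the stretch covered by the most libraries, because merged regions chained into long stretches, and printed repeat sequence on the border of the array, both chosen after seeing the data. The members, lists and tests were chosen with earlier results of these data known. Alternatives were other window widths, stricter folds, equal peak numbers, covered base pairs and genic or intergenic sequence alone. Some sequences are not reported here.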

Additional observations from a re-analysis of the deposited data

How the results depend on the processing

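No paired analysis was possible because the labels give no replicate numbers and each group is 1 library; the test over the 4 sorting days matches fractions by day. Every setting for the last 250 kb was chosen after seeing the data, and where a value moved the cause was not tested.

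The median end density ratio of the 16 libraries, 1.14, was 1.29 for the last 5 Mb, 0.864 for the last 250 kb, 1.24 by covered base pairs, 1.37 in intergenic and 0.979 in genic sequence, and 0.779 as the median of the 19 chromosome ratios. That of the centromere side, 1.01, was 1.08 by covered base pairs, 0.991 in genic sequence, 0.878 as the median of chromosomes and 0.507 with assembly gaps kept. For the last 250 kb the score ratio was 1.04, the input ratio 1.05 and the genic share difference -22.4 points (last 1 Mb, -7.39). For the last 5 Mb the input ratio was 0.986. H3K4me3 had 1.39 for the last 5 Mb and 1.39 by covered base pairs, and H3K36me3 had 1.35 for the last 1 Mb and 1.33 by covered base pairs. Recurrence in all 12 libraries was 4.23% with equal peak numbers, and windows of the ends 2-fold lower in iPSCs than in D0 numbered 2 by peaks.

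The mean log2 difference between routes over the last 2 Mb was -0.008 with a fold of at least 4, -0.194 as the median of chromosomes, and -0.022 (without day 12) to 0.064 (without day 9) without 1 day. Over the last 250 kb it was 0.336 (without day 16) to 0.595 (without day 6), and 0.351 with a fold of at least 4. The iPSC to D0 ratio there was 2.74 with equal peak numbers, 2.54 in intergenic sequence and 2.56 by covered base pairs. The iPSC to MEF ratio was 1.54 with a fold of at least 4, 2.58 with equal peak numbers and 2.61 by covered base pairs.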
